A study of Mus musculus with 10 samples.

Results

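Binding of the glucocorticoid receptor (GR) and of lysine-specific demethylase 1 (LSD1), and the marks H3K9me1 and H3K9me2, were examined at 10 genes long known as GR targets in inflammation and stress. The genes were Tsc22d3, Dusp1, Nfkbia, Tnfaip3, Zfp36, Anxa1, Sgk1, Errfi1, Mt1 and Mt2. They were chosen by name, out of 26180 genes with a curated RefSeq transcript on the mouse build GRCm38 (mm10). A peak was assigned to a gene when its midpoint lay in the gene body or within 30 kb of a transcription start site (TSS), and the same rule was applied to all 26180 genes. The peaks came from chromatin immunoprecipitation sequencing (ChIP-seq) of skeletal muscle of C57BL/6J mice, labelled as 10 weeks old, that were either fed or starved for 24 h. No genetic change or drug is labelled for either group, and 1 library was made per antibody and condition, with an input library for each condition. Each of the 8 resulting lists gives, for every peak, a fold enrichment over input and a q-value, both from the peak caller.

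Glucocorticoids are adrenal steroid hormones whose secretion increases in fasting and stress, and they act through GR, a nuclear receptor that enters the nucleus once it has bound the hormone. As a dimer, GR recognises the glucocorticoid response element (GRE), a pair of inverted half-sites 3 bases apart, and it can also reach DNA through other factors. The products of the 10 genes limit inflammatory signalling or buffer stress. TSC22D3 (also called GILZ) binds and restrains inflammatory transcription factors, DUSP1 dephosphorylates MAP kinases, NFKBIA holds NF-kB in the cytoplasm, and TNFAIP3 (A20) edits ubiquitin chains upstream of NF-kB. ZFP36 (tristetraprolin) binds AU-rich messenger RNAs and marks them for decay, and annexin A1 is a phospholipid-binding protein that limits leukocyte recruitment. SGK1 is a kinase of ion transport and cell survival, ERRFI1 inhibits the EGF receptor, and the metallothioneins MT1 and MT2 bind zinc and cadmium. LSD1 removes methyl groups from histone H3, and H3K9me1 and H3K9me2 are the mono- and dimethylated forms of its lysine 9.

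Each list came from 1 library, so the spread between replicates is unknown, no test was possible, and every comparison below describes these libraries. The read depth is unknown. Both GR libraries carried one library code and both LSD1 libraries another, whereas for H3K9me1 and H3K9me2 condition and code changed together and cannot be told apart. The LSD1 starved list holds 66332 peaks, of which 10.2% had a q-value of 0.01 or less, against 45.5% of the 16616 LSD1 fed peaks. Its length is far above the number of LSD1 peaks that the study gives for starved muscle. Whether both come from the same peak call is not known, and every LSD1 starved value below describes this list alone. It cannot be read as more LSD1 on chromatin after starvation. The labels name whole skeletal muscle, so the cell type that carried a peak, and a change in cell number as opposed to binding per cell, cannot be told apart. Genes that define myofibres had a GR peak in 8 of 8 cases in both conditions. In fed muscle a GR peak was listed for 2 of 4 endothelial, 1 of 4 macrophage, 1 of 4 fibroblast and 0 of 4 hepatocyte genes. In starved muscle these counts were 2, 3, 3 and 2 of 4, in a list of 37783 GR peaks against 14108 in fed muscle. Over all genes, 43.1% had a GR peak in fed and 66.5% in starved muscle. Counts over 4 genes per cell type do not show which cells carried GR.

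GR peaks were listed at 9 of the 10 genes in fed muscle, where 43.1% of all genes had one, and at 9 of the 10 in starved muscle, where 66.5% had one. The exception in both conditions was Anxa1. Together the genes held 41 separate GR peaks in the fed list and 54 in the starved list. The median number of GR peaks per gene was 4.5 in fed and 7.0 in starved muscle, against 0.0 and 1.0 over all genes. Over protein-coding genes alone the shares were 44.8% and 68.4%. Among the 5862 genes with an LSD1 fed peak at their promoter, GR peaks were more frequent than over all genes, at 74.0% in fed and 92.7% in starved muscle. Window size was 60.0 kb for the median gene and lay between 60.0 and 63.4 kb for all members but Tsc22d3, with 118 kb, and Sgk1, with 172 kb, which have several TSSs.

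**Figure D1:**
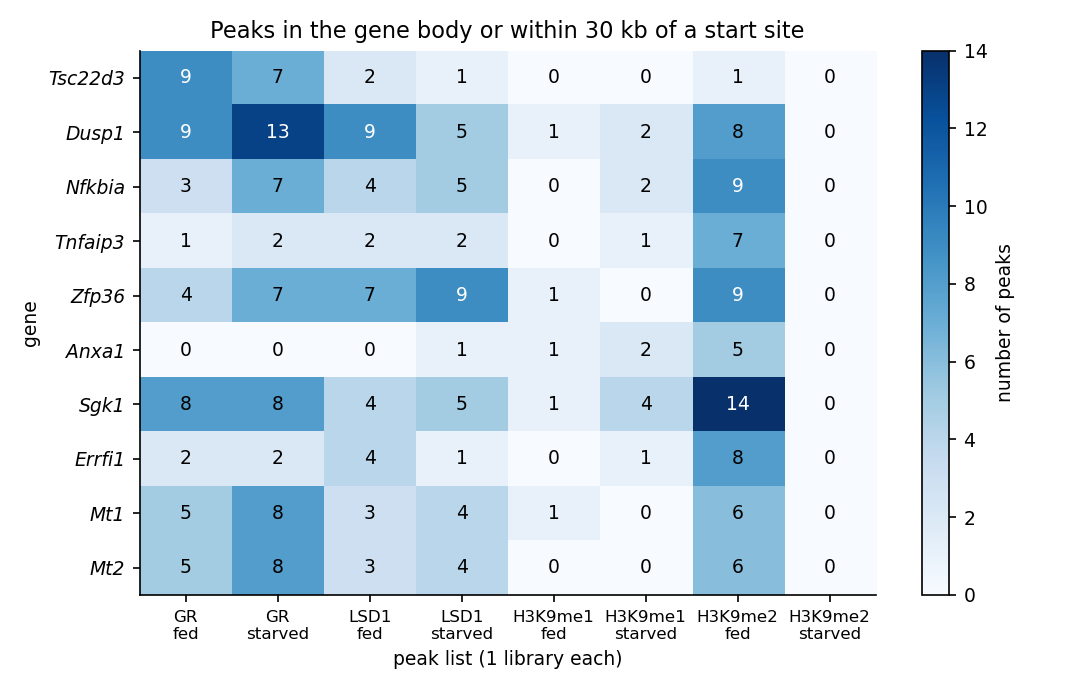
Number of peaks in the gene body or within 30 kb of a TSS for each gene (vertical axis) in each of the 8 lists (horizontal axis, 1 library each); darker cells hold more peaks. Anxa1 has no GR peak, Dusp1 has 13 GR peaks in starved muscle, and no gene has an H3K9me2 starved peak.

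The highest GR fold of most of these genes was also above the median of all genes with a peak. It was taken over more peaks at most of them than at the median gene, which was not adjusted for. Over all their GR peaks the median fold was 3.67 in fed and 2.99 in starved muscle, against 3.29 and 2.70 in the whole lists. Of these peaks 26.8% and 9.26% had a fold of 5 or more, against 11.1% and 1.82%. A GR peak of fold 5 or more was listed at 7 of the 10 genes in fed muscle, against 7.17% of all genes, and at 5 of the 10 in starved muscle, against 3.37%. The highest GR fold per gene had a median of 6.14 over the 9 members in fed muscle, between 4.18 at Tnfaip3 and 15.4 at Zfp36, and a median of 3.45 over the 11285 genes with a peak. In starved muscle the median was 5.93 over the 9 members, between 2.54 at Tnfaip3 and 11.7 at Zfp36, against 2.91 over 17406 genes. Mt1 and Mt2 are neighbours, with TSSs 6471 bp apart, and every GR peak of one was also a peak of the other, so they add 1 locus to these counts.

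**Figure D2:**
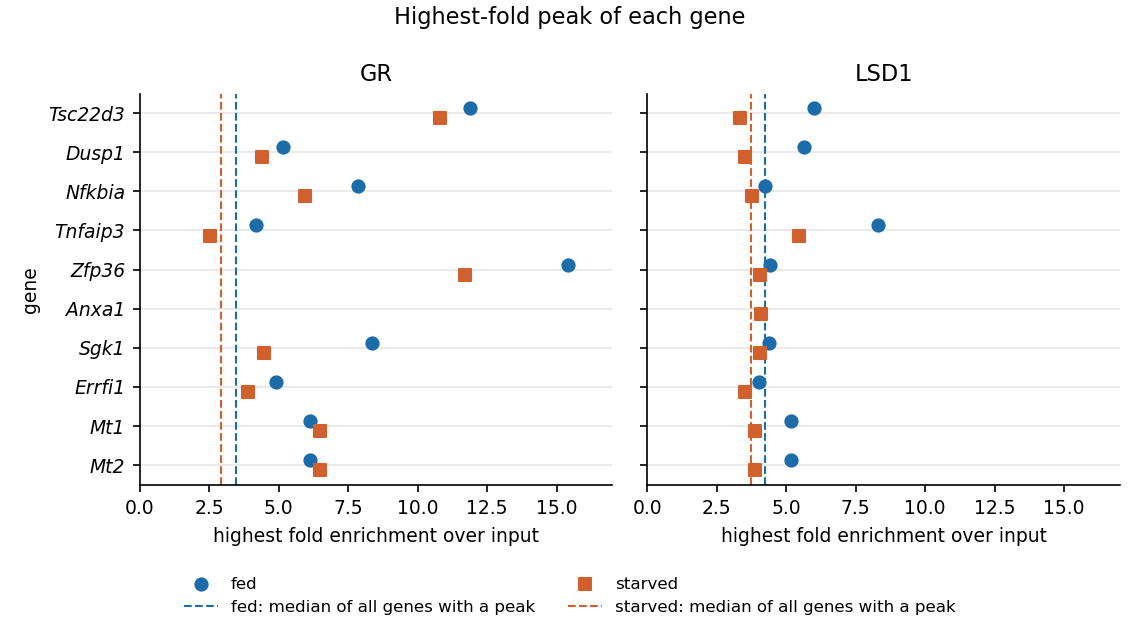
Highest fold enrichment over input among the peaks of each gene, for GR (left) and LSD1 (right), in fed (circles) and starved (squares) muscle; dashed lines mark the median of the same quantity over all genes with a peak. Zfp36 and Tsc22d3 stand above 10 for GR in both conditions, whereas most LSD1 values lie close to the dashed lines.

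The highest GR fold of the 10 genes was at Zfp36, a gene of 2.44 kb on the minus strand (chr7:28376784-28379228). The site lay at chr7:28376372-28376703 in fed muscle, 81 bp beyond the 3′ end of the gene and 2.69 kb from its TSS. It had a fold of 15.4 and ranked 11 of 14108 GR fed peaks. In starved muscle the site spanned chr7:28376308-28377250 and had a fold of 11.7, rank 16 of 37783. No LSD1 peak overlapped it in either condition, and an H3K9me1 fed peak of fold 3.23 (q-value 0.0399) lay within it. GR was also listed at the promoter (the 1000 bp before a TSS and the 100 bp after it), with folds of 2.86 at chr7:28378925-28379476 in fed and 2.80 at chr7:28378788-28379480 in starved muscle. LSD1 was present at this promoter in both conditions, with folds of 4.43 (chr7:28379055-28379649) and 3.68 (chr7:28379110-28379503). LSD1 overlapped 3 of the 4 GR fed sites of Zfp36, so the strongest was the only one without it. In starved muscle LSD1 overlapped 4 of 7 GR peaks.

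The sequence of the Zfp36 site is shown because no GRE-like match was found in the strongest site of the set. The motif searched was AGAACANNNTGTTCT, which reads the same on both strands, with at most 1 mismatch over its 12 fixed bases. Here and below the sequence is that of RefSeq GRCm38.p6, plus strand unless stated, 5′ to 3′. The middle 300 bases of the 332-bp fed peak are given, chr7:28376388-28376687, and capitals mark the matching bases of the closest stretch, which has 3 mismatches.

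Zfp36 GR site: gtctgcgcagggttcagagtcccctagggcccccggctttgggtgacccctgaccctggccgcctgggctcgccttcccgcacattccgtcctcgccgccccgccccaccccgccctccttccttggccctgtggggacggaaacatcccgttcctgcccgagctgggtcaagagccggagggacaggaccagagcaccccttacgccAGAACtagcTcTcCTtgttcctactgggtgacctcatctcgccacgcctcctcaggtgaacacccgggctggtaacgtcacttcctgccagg

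A stretch with at most 3 mismatches was found in 27.9% of 332-bp windows centred on GR fed peaks, in 57.2% of those of fold 5 or more, and in 25.8% of windows of that length 5 kb away. The half-site AGAACA, read on both strands, was not in the Zfp36 peak, and was in 29.3%, 42.1% and 26.2% of the same windows. These 2 looser searches were added after the lists had been seen.

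Tsc22d3 (chrX:140539528-140600522, minus strand, 3 TSSs) had 9 GR peaks in fed and 7 in starved muscle, most of them spread beyond the 3′ end of the gene. The strongest lay 29.1 kb downstream of the nearest TSS. In fed muscle it spanned chrX:140513378-140513682 with a fold of 11.9, rank 42 of 14108. In starved muscle it spanned chrX:140513326-140513777 with a fold of 10.8, rank 30 of 37783. The nearest TSS of any gene to this site was that of Tsc22d3, although the site lay just inside the 30 kb limit, and the next GR fed peak outward, at 31.3 kb with a fold of 3.57, was not counted. The next strongest fed sites had folds of 6.30, at 22.3 kb downstream, and 5.42, in an intron. The former was also present in starved muscle, with a fold of 5.91, and the latter was not overlapped by a starved peak. At the promoter, GR had a fold of 4.73 in fed (chrX:140543189-140543415) and 3.06 in starved muscle (chrX:140542856-140543360).

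LSD1 met GR at 2 of the 9 fed sites of Tsc22d3, which were the strongest site and the promoter. A 90-bp LSD1 fed peak of fold 6.01 lay at chrX:140513521-140513610, and in starved muscle LSD1 had a fold of 3.32 there, with a q-value of 0.0748. The LSD1 promoter peak of fed muscle, fold 4.32 at chrX:140543221-140543460, had no starved counterpart. GRE-like sequences are shown with 10 bases on each side, since the strongest site carries one near its middle, 31 bp from the midpoint of the fed peak and 10 bp from that of the starved peak. It lay within the LSD1 fed peak as well. The other one lay 15.3 kb downstream of the TSS, in a peak of fold 2.99 listed in starved muscle only. Capitals mark the bases that match the motif, and each sequence has 1 mismatch.

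Tsc22d3 strongest site, chrX:140513544-140513578: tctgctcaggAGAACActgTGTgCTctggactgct

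Tsc22d3 starved site, chrX:140527350-140527384: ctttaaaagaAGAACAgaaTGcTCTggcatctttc

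Sgk1 (chr10:21882184-21999903, plus strand, 6 TSSs) had 8 GR peaks in each condition. Its strongest fed site was intronic, 4.76 kb upstream of the nearest TSS, at chr10:21973816-21974002 with a fold of 8.36 (rank 253). A 55-bp LSD1 fed peak of fold 4.38 overlapped it. The overlapping GR starved peak, chr10:21973335-21974099, had a fold of 3.81, so the ratio of starved to fed fold was 0.456, the lowest of all GR sites of the 10 genes. The strongest starved site was at the promoter, chr10:21993647-21993806, with a fold of 4.48, within a fed peak of fold 5.74 at chr10:21992995-21993937. Weaker GR promoter peaks had folds of 3.02 in fed muscle (chr10:21991417-21991757) and of 2.76 (chr10:21991537-21991674) and 2.28 (chr10:21992979-21993163) in starved muscle. LSD1 had 2 promoter peaks in fed muscle, with folds of 3.99 at chr10:21993001-21993387 and 4.06 at chr10:21994337-21994902. In starved muscle 1 was listed, with a fold of 3.92 at chr10:21994504-21994788.

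The Sgk1 promoter site carried the only GRE-like sequence without a mismatch among the peaks of the 10 genes. It lay 182 bp upstream of a TSS, 242 bp from the midpoint of the fed peak and 18 bp from that of the starved peak. Both LSD1 fed promoter peaks lay beside it and did not cover it. Such a perfect match was found in 35 of 14077 GR fed peaks (0.249%) and in 21 of 37627 GR starved peaks (0.0558%) on chromosomes 1 to 19, X and Y.

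Sgk1 promoter site, chr10:21993691-21993725: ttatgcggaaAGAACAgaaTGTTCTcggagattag

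Nfkbia (chr12:55489409-55492647, minus strand, 3.24 kb) had a broad GR peak over its 5′ part. It spanned chr12:55491076-55492802 in fed muscle, across the TSS, with a fold of 7.85 (rank 325). In starved muscle it spanned chr12:55491764-55492894 with a fold of 5.93 (rank 357). Its midpoint fell in an intron in fed and in a coding exon in starved muscle, so it did not count as a promoter peak under the midpoint rule. LSD1 had 3 fed peaks along this GR peak, of which the one at the promoter, chr12:55492362-55492893, had a fold of 4.10. The starved LSD1 promoter peak, chr12:55492515-55492724, had a fold of 3.68 and was one of 6 LSD1 starved peaks at the 10 genes with a q-value of 0.01 or less. Both other GR fed sites, 11.8 and 18.6 kb downstream, had folds of 2.97 and 3.29 and were present in starved muscle with folds of 2.73 and 3.14. A further 4 weak sites, of fold 2.56 to 2.92, were listed in starved muscle only.

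Dusp1 (chr17:26505591-26508472, minus strand, 2.88 kb) had the most GR peaks in starved muscle, 13, and shared with Tsc22d3 the highest number in fed muscle, 9. All but 1 were below fold 5 in fed muscle, and all were in starved muscle. The strongest lay 19.4 kb downstream of the TSS, at chr17:26488837-26489406 with a fold of 5.15 in fed (rank 1426) and at chr17:26488665-26489784 with a fold of 4.40 in starved muscle (rank 1074). An LSD1 fed peak of fold 5.64 and an LSD1 starved peak of fold 3.27 overlapped this site. At the promoter the GR fed peak, chr17:26508480-26509514, had a fold of 3.54. In starved muscle a single peak of 1813 bp, chr17:26507328-26509140, ran across the TSS with a fold of 2.63, and since its midpoint lay 238 bp inside the gene it was not counted as a promoter peak. LSD1 was at the promoter with a fold of 3.89 in fed (chr17:26508462-26508948) and 3.51 in starved muscle (chr17:26508205-26508747). The site 22.5 kb upstream had GR folds of 4.70 in fed and 2.95 in starved muscle and was not overlapped by LSD1.

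Tnfaip3 (chr10:19000910-19015410, minus strand) was the weakest of the 9 genes with GR. Its only fed peak, an intronic site at chr10:19009409-19009529, had a fold of 4.18 and was not overlapped in starved muscle. The starved peaks were at chr10:19003956-19004178, fold 2.54 (q-value 0.0761), and at the promoter, chr10:19015428-19015640, fold 2.42 (q-value 0.0390). Neither met a q-value of 0.01 or less, the limit at which 8 of the 10 genes kept a GR starved peak. LSD1 was at the promoter in fed muscle with a fold of 3.76 (chr10:19015411-19015570). The highest LSD1 fold of the whole set, 8.29, also fell in this window, in a 60-bp peak 29.0 kb upstream at chr10:19044351-19044410, and the starved list had a 57-bp peak of fold 5.45 at the same place. All bases of both peaks are soft-masked as repeats in the reference, and the nearest TSS was that of Gm51814. The part of repeat sequence in these values was not tested.

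Errfi1 (chr4:150853796-150868889, plus strand) had 2 GR sites, both present in both conditions. The stronger lay 17.4 kb downstream of the TSS, beyond the gene, with a fold of 4.90 at chr4:150871825-150873026 in fed and 3.89 at chr4:150871112-150872748 in starved muscle. The promoter site had folds of 2.69 (chr4:150854893-150855307) and 2.57 (chr4:150854023-150855238). LSD1 overlapped both sites in fed muscle. In starved muscle its only peak was at the promoter, with a fold of 3.50 at chr4:150855006-150855241.

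Anxa1 (chr19:20373434-20390671, minus strand) stood apart. It had no GR peak in either condition and no LSD1 fed peak. Its only LSD1 starved peak was intronic, 49 bp long, with a fold of 4.09. Of the 7 other annexin genes examined, Anxa3 also had no GR peak in either condition. The remaining 6 did, and the highest fold was at Anxa4, with 8.82 in fed and 11.9 in starved muscle.

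**Figure D3:**
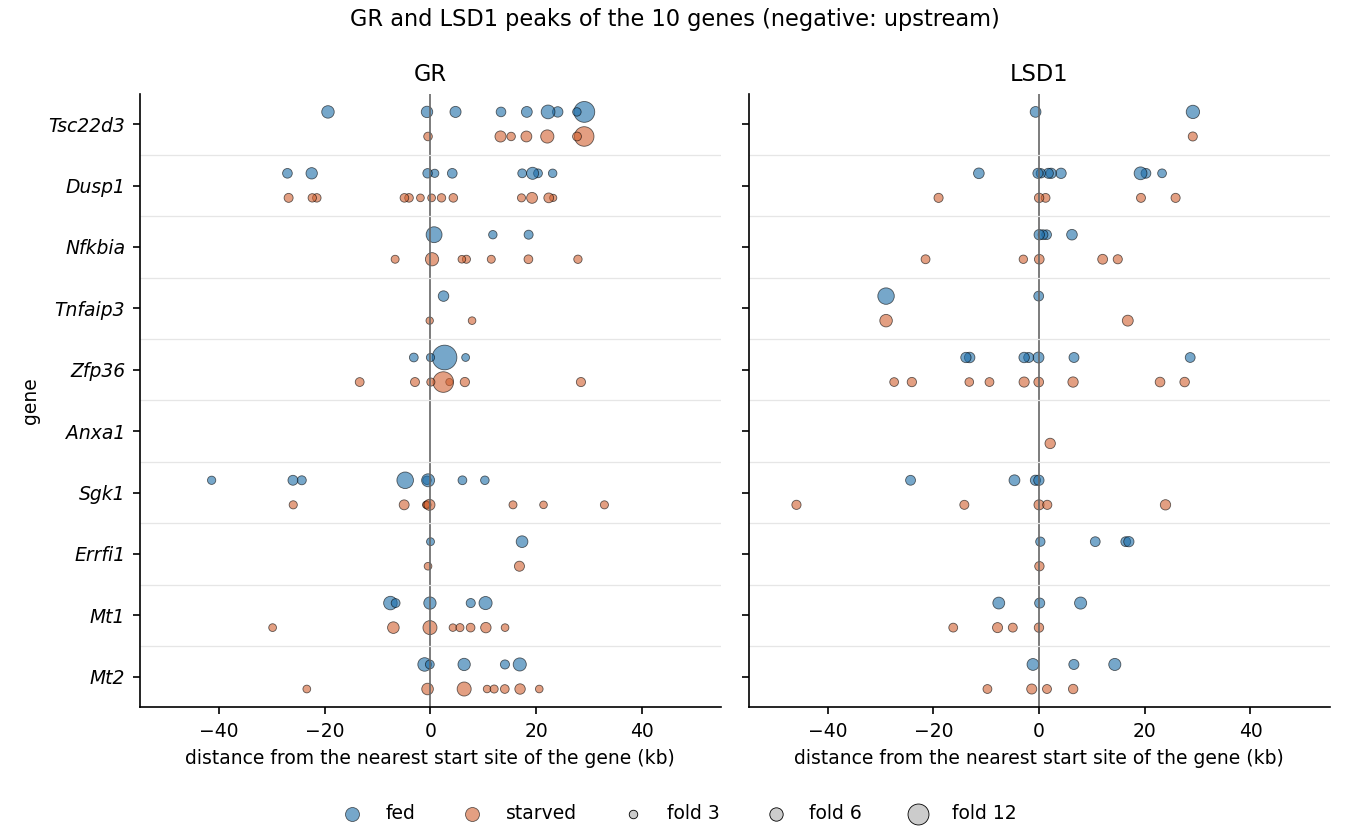
GR (left) and LSD1 (right) peaks of each gene by distance in kb from the nearest TSS of that gene, negative values upstream, in fed (upper row of each gene) and starved muscle (lower row); the area of a point grows with the fold enrichment. The largest GR points lie 29.1 kb downstream of a Tsc22d3 TSS and 2.69 kb downstream of the Zfp36 TSS, and few LSD1 points exceed fold 5.

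Mt1 (chr8:94179089-94180327) and Mt2 (chr8:94172618-94173567), both on the plus strand, shared 5 GR peaks in fed and 8 in starved muscle. At the Mt1 promoter the fold was 5.31 in fed (chr8:94178797-94179226, rank 1286) and 6.49 in starved muscle (chr8:94178827-94179210, rank 257). The strongest fed site, chr8:94171245-94171820, lay 1.09 kb upstream of the Mt2 TSS with a fold of 6.14 (rank 779). A separate fed peak on the Mt2 promoter, chr8:94172358-94172676, had a fold of 3.20. In starved muscle a single peak of 1940 bp, chr8:94171122-94173061, covered both with a fold of 4.84. A further site, 10.4 kb downstream of the Mt1 TSS, had folds of 5.84 and 4.11. Among the 11 GR fed sites of fold 5 or more at the 10 genes, the Mt1 promoter was the only one with a higher fold in starved muscle.

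LSD1 overlapped the site upstream of Mt2 in both conditions, with folds of 5.00 in fed (chr8:94171115-94171788) and 3.89 in starved muscle (chr8:94171195-94171243). The strongest LSD1 fed peak of the locus, chr8:94186911-94186968 with a fold of 5.16, met no GR peak of either condition. At Mt1 the LSD1 fed peak, chr8:94179069-94179317, was centred just inside the gene with a fold of 3.92, and the starved peak, chr8:94179032-94179087, was on the promoter with a fold of 3.52. No GRE-like sequence with at most 1 mismatch was in a GR peak of this locus. The closest match, with 2 mismatches, lay 10 bp from the midpoint of the strongest fed peak and was shown after the lists had been seen.

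Site upstream of Mt2, chr8:94171525-94171559: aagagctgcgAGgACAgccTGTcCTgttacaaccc

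The promoters of Mt1 and Mt2 are given because a GR fed peak covers each of them in full. They run from 250 bases before to 50 bases after the TSS. Capitals mark cores of the metal response element, the binding site of the zinc-sensing factor MTF1, searched as TGCACNC and TGCGCNC on both strands. The Mt1 promoter held 3 cores and the Mt2 promoter 4. Of 32851 RefSeq promoters of this length, 1.97% held 3 or more cores and 0.517% held 4 or more.

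Mt1 promoter, chr8:94178839-94179138: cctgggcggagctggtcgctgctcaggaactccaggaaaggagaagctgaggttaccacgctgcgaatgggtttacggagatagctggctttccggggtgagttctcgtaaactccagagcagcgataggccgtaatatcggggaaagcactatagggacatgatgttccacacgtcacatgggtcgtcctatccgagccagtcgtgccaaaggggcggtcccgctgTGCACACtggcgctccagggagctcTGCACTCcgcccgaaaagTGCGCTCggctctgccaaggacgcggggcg

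Mt2 promoter, chr8:94172368-94172667: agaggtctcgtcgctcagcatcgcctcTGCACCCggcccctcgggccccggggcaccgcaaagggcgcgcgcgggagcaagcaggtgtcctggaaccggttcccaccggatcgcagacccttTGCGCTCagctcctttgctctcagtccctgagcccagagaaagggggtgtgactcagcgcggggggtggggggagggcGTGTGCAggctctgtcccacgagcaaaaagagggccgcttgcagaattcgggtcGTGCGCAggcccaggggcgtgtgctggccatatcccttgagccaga

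Over the 10 genes, a GRE-like sequence with at most 1 mismatch was in a GR peak of Tsc22d3 and Sgk1 only, which is 2 of 10 in each condition, against 1.49% of all genes in fed and 1.49% in starved muscle. These 2 genes have the widest windows of the 10, and the number of GR peaks per gene was not adjusted for. By peaks it was 2 of 41 in fed muscle (4.88%, exact 95% binomial confidence interval 0.596 to 16.5%) and 3 of 54 in starved muscle (5.56%, 1.16 to 15.4%). The shares over the whole lists were 2.17% and 0.712%, and in sequence of equal length 5 kb away they were 0.245% and 0.276%. These intervals reflect counting error alone, and peaks of one gene are not independent of each other. Among GR fed peaks of fold 5 or more the share was 2 of 11 at the 10 genes and 7.28% in the whole list. The motif of nuclear respiratory factor 1 (GCGCATGCGC, no mismatch) was in 0 of 41 fed and 0 of 54 starved GR peaks, and in 0.632% and 0.510% of the whole lists.

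GR sites of fed muscle were largely listed again after starvation. Of these 41 sites, 32 shared at least 1 bp with a starved peak (78.0%, interval 62.4 to 89.4%), against 65.8% of all GR fed peaks. Genes with such a site numbered 8 of 10, against 34.6% of all genes. In the other direction, 31 of 54 starved peaks (57.4%, 43.2 to 70.8%) overlapped a fed peak, against 24.5% of the whole starved list. Of the 9 fed sites not listed again, 4 were at Sgk1, 3 at Tsc22d3, 1 at Dusp1 and 1 at Tnfaip3. Among the 11 fed sites of fold 5 or more, 10 were listed again, which is 90.9%, beside 91.6% in the whole list.

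At the 32 sites present in both lists, the starved fold was lower than the fed fold at 25, or 78.1%. Over all 9287 such pairs of the series the share was 78.7%, so the members' share lay at that of the whole lists. The median ratio of starved to fed fold was 0.901 at the 10 genes, between 0.456 and 1.51, and 0.878 over all pairs. Sites with the higher fold in starved muscle were 3 at Tsc22d3, 2 at Zfp36 and 2 at the metallothionein locus. Of the latter 2, the fed peak of fold 3.20 on the Mt2 promoter gave the ratio of 1.51. It was paired with the long starved peak of fold 4.84, which also covers the fed peak of fold 6.14 beside it, with a ratio of 0.789. The ratio of 1.51 therefore does not show a gain at the Mt2 promoter.

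**Figure D4:**
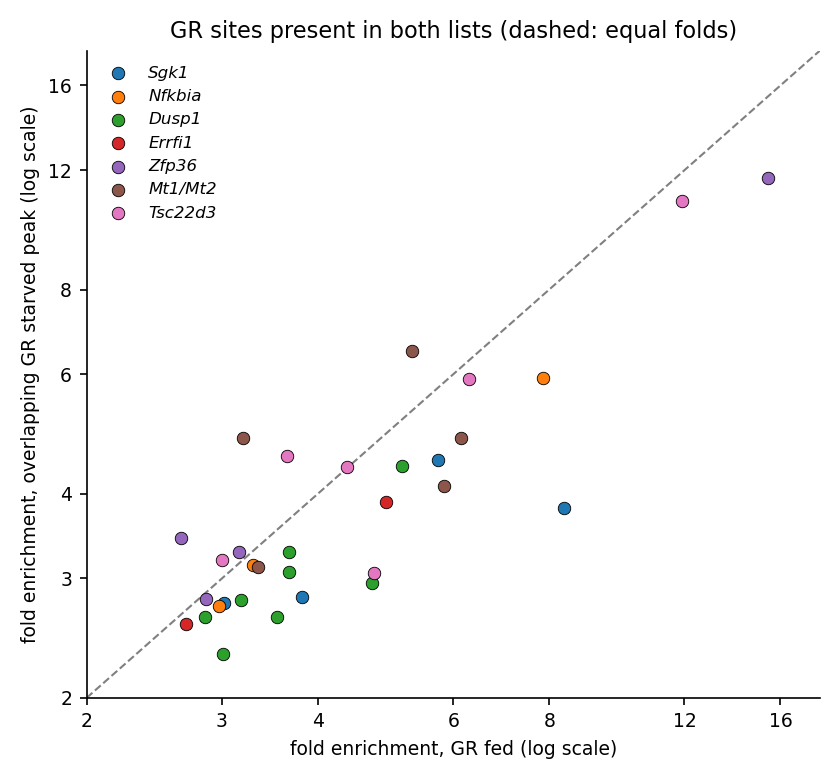
Fold enrichment of the 32 GR fed peaks that overlap a GR starved peak (horizontal axis) against the highest fold of the overlapping starved peak (vertical axis), both on log scales, coloured by gene; the dashed line marks equal folds. 25 of the 32 points lie below the line, the Zfp36 and Tsc22d3 sites lie at the upper end, and the intronic Sgk1 site of fold 8.36 lies furthest below.

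LSD1 peaks were listed at 9 of the 10 genes in fed muscle, against 51.1% of all genes, and at all 10 in the long LSD1 starved list of uncertain version, against 83.7%. The step from 9 to 10 genes is therefore not a comparison of LSD1 binding between conditions. In fed muscle Dusp1 had 9 LSD1 peaks, Zfp36 7, Nfkbia, Sgk1 and Errfi1 4 each, the metallothionein locus 3, and Tsc22d3 and Tnfaip3 2 each. In starved muscle Zfp36 had 9, Dusp1, Nfkbia and Sgk1 5 each, the metallothionein locus 4, Tnfaip3 2, and Tsc22d3, Anxa1 and Errfi1 1 each. In both conditions, most LSD1 peaks in the Zfp36 window lay nearest to the TSS of another gene, such as Plekhg2, Med29 or Paf1. So did most GR starved peaks there, though not the strongest. LSD1 folds at the 10 genes stood closer to those of other genes than the GR folds did. The highest LSD1 fold per gene had a median of 5.16 over the 9 genes in fed muscle and 3.89 over the 10 in starved muscle, against 4.22 and 3.74 over all genes with a peak. Mt1 and Mt2 shared their strongest LSD1 peak in each condition, and both enter these medians. An LSD1 starved peak lay on 14 of the 35 fed sites (40.0%, interval 23.9 to 57.9%), against 23.1% of the whole list. Of the 33 LSD1 starved peaks 6 (18.2%) had a q-value of 0.01 or less, against 10.2% of the whole list.

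Promoter peaks were more frequent than over all genes for both proteins. GR was at the promoter of 7 of the 10 genes in fed muscle, against 13.4% of all genes, and of 7 in starved muscle, against 23.3%. LSD1 was at the promoter of 6 genes in fed muscle, against 22.4%, and of 6 in starved muscle, against 16.2%. Dusp1, Nfkbia, Zfp36 and Sgk1 had LSD1 there in both conditions. Of the 11 GR fed peaks of fold 5 or more, 2 were centred on a promoter, at Sgk1 and Mt1. Of all 41 GR fed peaks 8 lay in the promoter of a gene (19.5%, against 22.4% of the whole list), and 21 lay 10 kb or more from a TSS of their gene.

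A GR peak overlapped by an LSD1 peak of the same condition was listed at 8 of the 10 genes in fed muscle, against 29.5% of all genes, and at 7 in starved muscle, against 27.7%. Only Tnfaip3 and Anxa1 had none in fed muscle, and Sgk1 joined them in starved muscle. The shares over all genes count genes without a GR peak, which cannot have such an overlap. By peaks, LSD1 overlapped 17 of 41 GR fed peaks (41.5%, interval 26.3 to 57.9%), and 48.3% of the whole list. In starved muscle it overlapped 11 of 54 (20.4%, 10.6 to 33.5%), beside 14.7%. At the 11 fed sites of fold 5 or more the count was 7, or 63.6%, and 61.1% in the whole list. At the 30 weaker fed sites it was 10, or 33.3%, and 46.7% in the whole list.

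H3K9me2 peaks were listed at all 10 genes in fed muscle, where 95.5% of all genes had one. In starved muscle none of the 10 had one, against 10.2% of all genes, in a list of 6624 peaks against 171402. Both counts lay near the share over all genes. Of the 67 fed peaks 7 (10.4%) had a q-value of 0.01 or less, against 20.9% of the whole list, and the highest fold was 4.30, in the Zfp36 window but nearest to the TSS of Plekhg2. Sgk1, with its long window, had 14 peaks, Zfp36 and Nfkbia 9 each, Dusp1 and Errfi1 8 each, Tnfaip3 7, Mt1 and Mt2 6 each, Anxa1 5 and Tsc22d3 1. The promoters of Nfkbia, Tnfaip3 and Anxa1 had an H3K9me2 fed peak, 3 of 10 genes against 22.3% of all genes. At Anxa1 it was centred 25 bp upstream of the TSS, with a fold of 3.82. H3K9me2 overlapped 3 of 41 GR fed peaks (7.32%, interval 1.54 to 19.9%) against 16.5% of the whole list. The broad Nfkbia peak was one of them. H3K9me1 peaks were listed at 5 of 10 genes in fed muscle, against 38.0% of all genes. In starved muscle they were listed at 6 of 10, against 65.6%. With 10 genes, these H3K9me1 counts also lay near the shares over all genes. The fed list had 1 peak each at Dusp1, Zfp36, Anxa1, Sgk1 and Mt1. The starved list had 4 at Sgk1, 2 each at Dusp1, Nfkbia and Anxa1, and 1 each at Tnfaip3 and Errfi1. Their folds lay between 3.23 and 4.28.

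Relatives and partners of the same gene families, 36 genes such as the other dual-specificity phosphatases, annexins, I-kappa-B proteins and ERBB receptors, had GR peaks in 26 cases (72.2%) in fed and 33 (91.7%) in starved muscle. A GR peak of fold 5 or more was listed for 6 of them in fed and 4 in starved muscle. Egfr, the receptor that ERRFI1 inhibits, had the highest fed fold of these, 9.48. Mt3, also among them, lies beside Mt2 and shares sites with it. Of 19 NF-kB subunits, kinases and inflammatory target genes, 4 had a GR peak in fed muscle (21.1%), which were Nfkb2, Rela, Relb and Rel, and 14 in starved muscle (73.7%). Over all genes, the shares with a GR peak were 43.1% in fed and 66.5% in starved muscle. None of the 19 had a GR peak of fold 5 or more in either condition, against 7.17% and 3.37% of all genes. With 19 genes, a count of none lies near these shares. The highest fold per gene lay between 2.76 and 3.30 over the 4 genes in fed muscle, and between 2.58, at Il1b, and 3.42, at Relb, over the 14 in starved muscle.

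**Figure D5:**
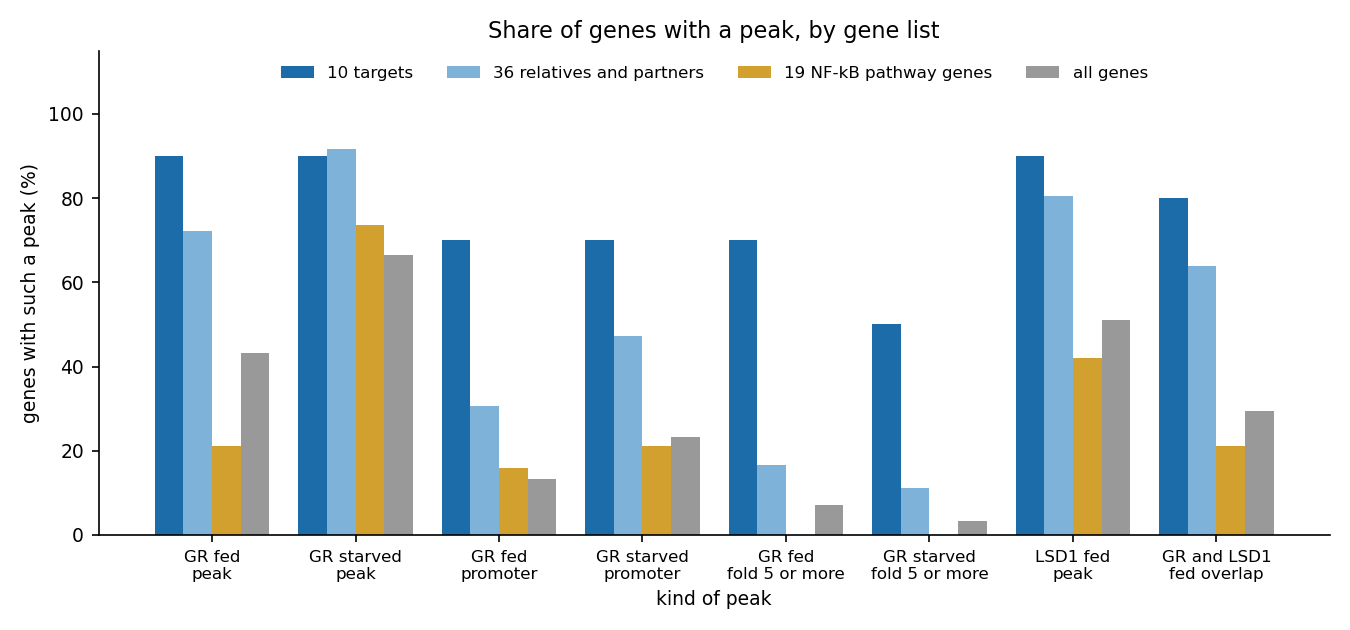
Share of genes (vertical axis, %) with each kind of peak (horizontal axis) for the 10 targets, 36 relatives and partners, 19 NF-kB pathway genes and all 26180 genes. GR peaks of fold 5 or more are at 7 of the 10 targets in fed and 5 of 10 in starved muscle. They are at 16.7% and 11.1% of the relatives and partners, 0 of the NF-kB pathway genes, and 7.17% and 3.37% of all genes.

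Which of the 8 lists hold a peak did not single out any member. The number of genes with the same pattern of presence over the 8 lists, the member included, lay between 657 for Anxa1 and 3197 for Nfkbia, Tnfaip3 and Errfi1.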

How the data were processed

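GR, LSD1, H3K9me1 and H3K9me2 ChIP-seq peaks of fed and starved mouse skeletal muscle were analysed, 8 lists in all. Per the methods of the study, reads were mapped with Bowtie to mm10, multiply mapped reads and regions of a blacklist named for the human genome were removed, and the authors called broad peaks with MACS2 against input. The deposited columns used were the fold over input (a ratio) and the −log10 q-value, which was converted to a q-value. The −log10 p-value and the display score that the authors' peak caller wrote were deposited too and were not used. The lists hold peaks with q-values up to about 0.1, so weak peaks are included. The inputs enter through that call, and so bear on which peaks are listed, their folds and their q-values, and were not analysed on their own. Because peaks were called separately in each library, counts of peaks depend on depth, which is not given in the sources used here.

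Gene positions were those of curated RefSeq transcripts on GRCm38.p6. Peaks overlapped when they shared 1 bp or more. Intervals are exact (Clopper-Pearson) 95% binomial intervals and cover counting error only. Sequences were read from the RefSeq genome and promoter table and searched for motifs on chromosomes 1 to 19, X and Y. Peak assignment, overlaps and motif searches were tested on simulated data, and all steps were run in python 3.11.15 with numpy 2.4.6, scipy 1.17.1, pysam 0.24.0 and matplotlib 3.10.9. No test was made, since each group had 1 library. The 10 genes and the comparison lists were chosen with earlier results of these data known. All 10 genes are named, with the positions of their highest GR peaks, of any promoter peak of GR or LSD1, and of GR peaks with a GRE-like sequence. Sites and genes beyond these were chosen after their values were seen. Alternatives were other windows, thresholds, overlap rules, mismatch limits and lists of equal length.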

Additional observations from a re-analysis of the deposited data

How the results depend on the processing

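Presence of a GR peak in fed muscle, at 9 of the 10 genes, was the same or within 1.5 times under every alternative run. Values that moved further follow, and a stricter limit on fold or q-value can only keep or lower a count. At fold 5 or more, GR starved peaks were at 5 genes, LSD1 fed peaks at 5, LSD1 starved peaks at 1, and H3K9me1 fed, H3K9me1 starved and H3K9me2 fed peaks at 0. Promoter peaks of that fold were at 2 genes for GR fed, 1 for GR starved, and 0 for LSD1 fed and LSD1 starved. GR peaks overlapped by LSD1, both of fold 5 or more, were at 4 genes in fed and 0 in starved muscle, and 45.5% of 11 GR fed peaks overlapped a starved peak when both had that fold. The share of the whole list under this limit is not given here. In the whole lists 11.1% of GR fed but 1.82% of GR starved peaks had that fold, so the lower share cannot be read as a loss of the members' sites. At q-values of 0.01 or less, LSD1 starved peaks were at 5 genes, LSD1 starved promoter peaks at 2, H3K9me1 fed peaks at 1, H3K9me2 fed peaks at 4, and GR starved peaks overlapped by LSD1 at 2. At q-values of 1e-05 or less, LSD1 fed peaks were at 3 genes and LSD1 starved peaks at 1. The counts at that limit were 0 for H3K9me1 fed, H3K9me1 starved and H3K9me2 fed peaks, 4 for GR fed, 3 for GR starved, 0 for LSD1 fed and 0 for LSD1 starved promoter peaks. In lists of equal length by fold, H3K9me2 fed peaks were at 0 genes and LSD1 starved promoter peaks at 1. Within 10 kb, H3K9me1 peaks were at 3 genes in fed and 3 in starved muscle. Within 100 kb they were at 8 and 10, and H3K9me2 starved peaks at 2. With each peak given only to the gene of the nearest TSS, H3K9me1 fed peaks were at 3 genes. With no mismatch a GRE-like sequence was at 1 gene in each condition, and with at most 2 mismatches at 5 in fed and 6 in starved muscle. The other 84 recomputed values of these results were within 1.5 times of the reported count. With 1 library per list, neither a difference between conditions nor a missing peak can be separated from depth, and the H3K9me1 and H3K9me2 conditions cannot be told apart from their library codes.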
